A study of Homo sapiens with 36 samples.

Results

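AGR2, SCN3B, PLA2G3 and FST were 4 genes with lower levels than control in HepG2 cells exposed to docosahexaenoic acid (DHA) for 24 h. They are 4 of the 18932 genes in the deposited count table, and they were selected on their log2 fold changes at that time, which were far below 0 against control with DHA or with DHA and a second compound. None of them is an enzyme of sterol or fatty acid synthesis. The DHA values against control at 24 h are therefore given as a description with no test, and tests are given only for comparisons that the choice did not use.

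HepG2 is an established human hepatoma line. The 36 RNA-seq libraries came from 12 groups of 3. They were vehicle control (Ctrl), 50 µM DHA, 70 µM propionate (PRO), 20 µM protocatechuic acid (PCA), DHA + PRO and DHA + PCA, each after 6 h and after 24 h, and the co-treatments used the same concentrations. DHA, an omega-3 fatty acid, was given in ethanol and bound to bovine serum albumin (BSA). PRO, a short-chain fatty acid, was given in water, and PCA, a phenolic acid, in acidified dimethyl sulfoxide (DMSO). Ctrl cells are labelled DMSO/BSA, and by the study's methods they were given ethanol as well, in amounts that matched. All cells were in serum-free medium during exposure. The groups thus compare compounds in 1 tumour line, and each library is RNA pooled from 3 cultures of 1 independent experiment.

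AGR2 is a protein disulfide isomerase of the endoplasmic reticulum (ER), where such enzymes form and rearrange the disulfide bonds of proteins that will be secreted. SCN3B is a beta subunit of voltage-gated sodium channels, which sits beside the pore-forming alpha subunit, and it is also known as a gene induced by p53. PLA2G3 is a secreted phospholipase A2, an enzyme that releases a fatty acid and a lysophospholipid from membrane phospholipids. FST encodes follistatin, a secreted glycoprotein that binds activins and keeps them from their receptors, and the liver is a known source of it.

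On the hg19 (GRCh37) build, the table placed AGR2 (NM_006408) on the minus strand at chr7:16832264-16844738 with a counted length of 983 bp. SCN3B (NM_018400) lay on the minus strand at chr11:123499895-123525315 with 6066 bp. PLA2G3 (NM_015715) lay on the minus strand at chr22:31530793-31536593 with 2699 bp, and FST (NM_006350) on the plus strand at chr5:52776264-52782304 with 2098 bp. The counts cover each gene's whole transcript model and do not separate isoforms. No other gene of the table overlapped any of the 4. INPP5J lay 109 bp from PLA2G3 on the other strand, and GRAMD1B 1415 bp from SCN3B on the other strand. The library kit is not one that marks strand, and the strand setting of the counting is not given in the sources used here. These neighbours had 4 to 33 and 2 to 25 reads per library, about as few as the genes themselves.

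Promoter sequences were taken from RefSeq on GRCh38.p14 and were found for 2 of the 4 genes, AGR2 and FST. Each window held 300 bases, 250 before and 50 after the RefSeq start, and each had 1 exact match in GRCh37. The deposited gene starts lay upstream of the RefSeq starts, by 115 bp for AGR2 and 195 bp for FST. The bases that lie before both starts are shown here, since they are outside the deposited and the RefSeq transcript models. They are 135 bases at chr7:16844739-16844873 (minus strand, GRCh37) and 55 bases at chr5:52776209-52776263 (plus strand, GRCh37), written 5′ to 3′.
AGR2 upstream: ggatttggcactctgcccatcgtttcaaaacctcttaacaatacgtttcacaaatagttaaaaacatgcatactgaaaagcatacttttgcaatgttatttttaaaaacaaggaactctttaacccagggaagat
FST upstream: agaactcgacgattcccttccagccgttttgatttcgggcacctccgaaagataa

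The windows were searched on both strands for the sterol regulatory element TCACNCCAC, for the E-box CANNTG and for the DR1 element, a repeat of the nuclear receptor half-site with 1 base between. Neither window held the sterol element or DR1, which were present in 1.13% and 0.0228% of 35116 RefSeq promoters. AGR2 had 3 E-boxes and FST 1, but 68.7% of all promoters held at least 1. The first base of the AGR2 E-boxes lay at −112, −15 and 44 relative to the RefSeq start, and that of the FST E-box at −164. Every one of these E-boxes lay downstream of the deposited gene start, outside the upstream bases shown above. Each is shown with up to 10 bases on either side and the E-box in capitals. The last AGR2 site ended the window. These matches are letters in a window and were not tested as binding sites.
AGR2 −112: ggaagataatCACTTGgggaaaggaa
AGR2 −15: aatagagactCAGCTGtgctggcaca
AGR2 44: tcacacaaggCAGGTG
FST −164: tgggaaatgtCACCTGattcacactg

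Total counts were between 4659744 and 10788964 in 35 libraries and 42326734 in replicate 2 of DHA + PRO at 24 h, which was 6.22 times the median of the other 24 h libraries. Levels are given as CPM, the count divided by a library size that was scaled by the TMM method. Adjusted p-values are from the edgeR quasi-likelihood test with Benjamini-Hochberg adjustment over all genes tested. A gene was called at an adjusted p of at most 0.05 with an average log2 CPM above 0. The 10 hepatocyte markers examined, among them ALB, APOA1 and AFP, all had a median above 1 CPM. Their summed level was 55233 to 73228 CPM. Of 12 markers of fibroblasts, immune cells and endothelium, 3 had a median above 1 CPM and none was at 0 in all libraries. At 24 h their summed level was 60.1 to 74.5 CPM with DHA and 58.2 to 78.1 CPM without it. Among all these markers, PDGFRB of fibroblasts (log2 fold change −0.46, adjusted p = 0.0236 in edgeR) and the hepatocyte gene TF (−0.20, adjusted p = 0.0317 in edgeR) were lower in the averaged DHA effect at 24 h defined further on, and their part in the results was not tested.

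The 4 genes were of very different abundance. In Ctrl at 24 h the level per gene length was 31.7 RPKM (CPM divided by the gene's length in kilobases) for FST, 18.3 RPKM for AGR2, 1.99 RPKM for PLA2G3 and 0.282 RPKM for SCN3B. FST had 144 to 1965 reads per library and AGR2 33 to 375. PLA2G3 had only 2 to 70 reads and SCN3B 1 to 23, so counting error alone was large for both.

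AGR2 showed the most even pattern. At 24 h the Ctrl libraries held 100, 134 and 127 reads, or 16.8, 20.1 and 17.1 CPM. The DHA libraries held 56, 92 and 72 reads, or 9.14, 10.8 and 10.4 CPM. DHA + PRO had 47, 375 and 77 reads, which gave 7.85, 8.98 and 11.0 CPM because the library with 375 reads was the deep one. DHA + PCA had 52, 65 and 60 reads, or 9.21, 10.5 and 8.97 CPM. All 9 libraries with DHA were thus below all 9 without it, with ranges of 7.85 to 11.0 and 13.1 to 20.1 CPM. Of the 4 genes, AGR2 alone had ranges that did not overlap, which 0.311% of the 11893 genes tested at 24 h did in that direction, and nothing is read from this since the choice used these libraries.

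SCN3B had the fewest reads. At 24 h Ctrl held 11, 12 and 11 reads, DHA 3, 4 and 5, and PRO 6, 10 and 5. PCA held 7, 11 and 11 reads, DHA + PCA 7, 7 and 6, and DHA + PRO 2, 23 and 2, where the 23 reads again came from the deep library and stood for 0.551 CPM. The group means at 24 h were 1.71 CPM ± 0.198 (SD, n = 3) in Ctrl, 0.561 ± 0.141 in DHA and 0.390 ± 0.141 in DHA + PRO, but 1.09 ± 0.175 in DHA + PCA. The 95% Poisson interval of the summed reads covers counting error only. It was 1.17 to 2.37 CPM in Ctrl, 0.288 to 0.973 CPM in DHA and 0.325 to 0.717 CPM in DHA + PRO. In DHA + PCA it was 0.659 to 1.67 CPM, in PRO 0.581 to 1.43 CPM and in PCA 0.977 to 2.10 CPM. These intervals are no test of DHA, since the choice used the libraries of Ctrl and of the treatments with DHA. Libraries of DHA, DHA + PRO and DHA + PCA were all below those of Ctrl, and nothing is read from this since the choice used them. The lowest library without DHA was one of PRO (0.692 CPM), and 4 of the 9 libraries with DHA, 3 of them from DHA + PCA, exceeded it.

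PLA2G3 was lowest with DHA + PCA. Ctrl at 24 h held 36, 33 and 38 reads, or 5.37 CPM ± 0.588 (SD, n = 3). DHA held 21, 13 and 13 reads (2.28 CPM ± 1.01), and DHA + PRO 21, 70 and 14 reads (2.39 CPM ± 0.978). DHA + PCA held 6, 7 and 9 reads, or 1.18 CPM ± 0.148, close to the 0.851 to 1.41 CPM of the 6 groups at 6 h. PRO and PCA alone had 32, 21 and 32 and 34, 23 and 46 reads, and 2 of the 9 libraries with DHA were above the lowest library without it. Both were replicate 1, of DHA (3.43 CPM) and of DHA + PRO (3.51 CPM).

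FST was the most abundant of the 4 genes. At 24 h Ctrl held 330, 495 and 521 reads, or 55.4, 74.2 and 70.2 CPM, and DHA 191, 379 and 296 reads, or 31.2, 44.5 and 42.8 CPM. DHA + PRO held 154, 1965 and 287 reads (25.7, 47.0 and 40.9 CPM), and DHA + PCA 144, 217 and 233 reads (31.8 CPM ± 5.43, SD, n = 3). Each of these 9 libraries lay below every Ctrl library, and nothing is read from this since the choice used the same libraries. PRO and PCA alone ranged more widely, from 45.3 to 71.4 and from 38.8 to 73.1 CPM, and 4 of the 9 libraries with DHA were above the lowest of these. Replicate 1 was the lowest library of FST in each of the 6 groups at 24 h.

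**Figure D1:**
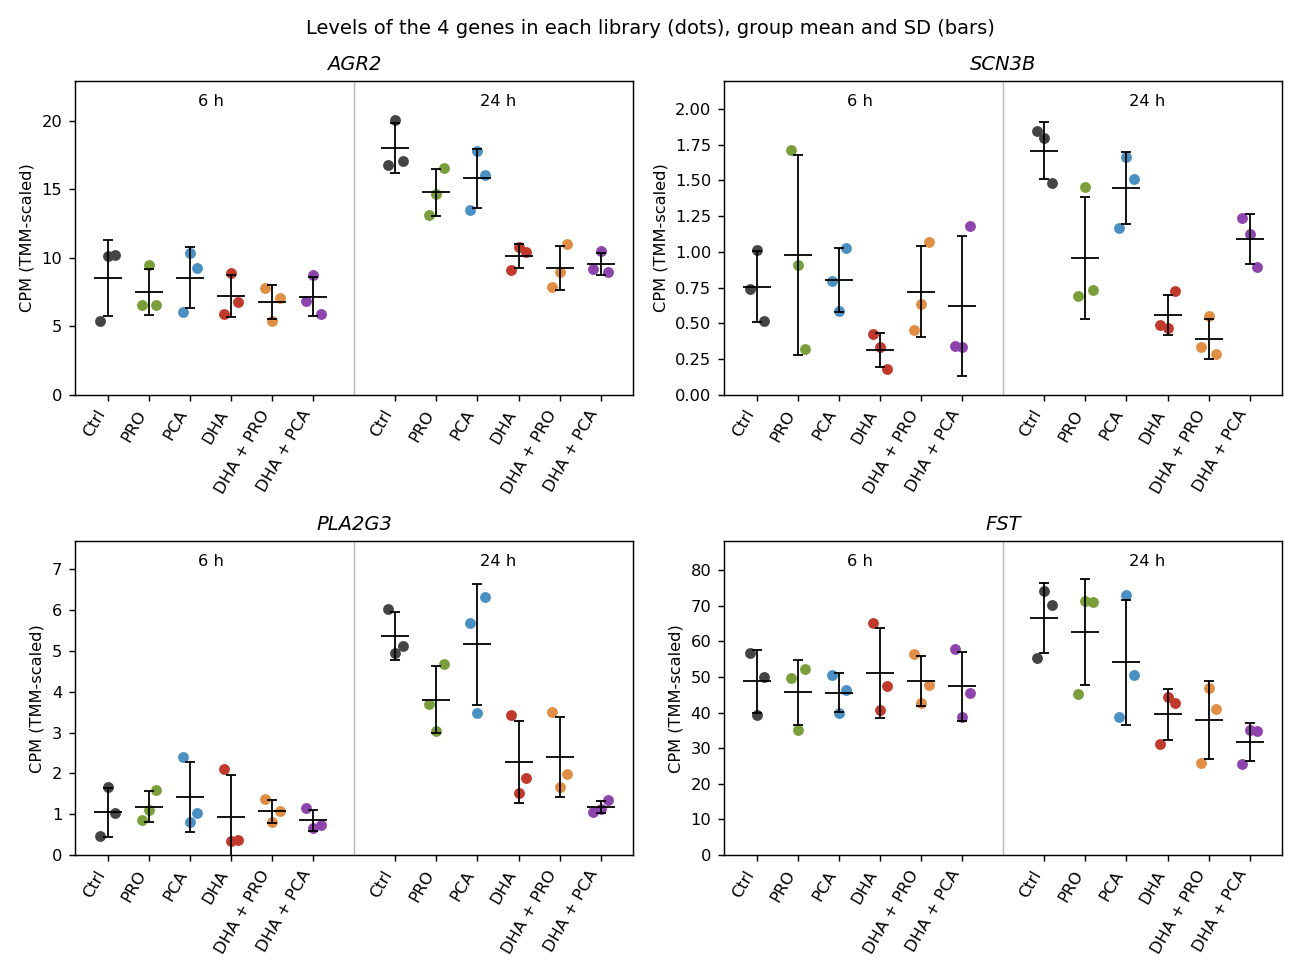
Level of each gene in CPM (linear axis from 0) in every library. Dots are libraries, the horizontal bars are group means and the error bars are SD (n = 3), with 6 h on the left and 24 h on the right of each panel. AGR2 shows 2 separate bands at 24 h, 7.85 to 11.0 CPM with DHA and 13.1 to 20.1 CPM without it, while the scale for SCN3B ends near 2 CPM.

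Ordered over all 12 groups, AGR2, SCN3B, PLA2G3 and FST each had their highest mean in Ctrl at 24 h. The lowest mean belonged to DHA + PRO at 6 h for AGR2, DHA at 6 h for SCN3B, DHA + PCA at 6 h for PLA2G3 and DHA + PCA at 24 h for FST. FST was therefore the gene whose 24 h means with DHA lay under all of its 6 h means. The highest mean was 2.65 times the lowest for AGR2, 5.45 times for SCN3B, 6.31 times for PLA2G3 and 2.10 times for FST. Of the 11 neighbouring pairs of groups in each order, the libraries were without overlap in 1 pair for AGR2 (PRO above DHA, both at 24 h) and in 0 pairs for the other genes.

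AGR2 and FST were below Ctrl at 24 h with each of the 3 treatments that contained DHA. For AGR2 the log2 fold change was −0.82 (SE 0.165) for DHA, −0.96 (SE 0.161) for DHA + PRO and −0.91 (SE 0.169) for DHA + PCA. For FST it was −0.75 (SE 0.218), −0.78 (SE 0.214) and −1.06 (SE 0.224). These 3 comparisons share the Ctrl libraries. DHA + PRO against DHA gave −0.14 (SE 0.168) for AGR2 and −0.03 (SE 0.218) for FST. DHA + PCA against DHA gave −0.09 (SE 0.177) for AGR2 and −0.32 (SE 0.229) for FST. These differences were not tested.

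The values of SCN3B and PLA2G3 lay further apart, with larger SE. The log2 fold change of SCN3B was −1.58 (SE 0.458), −1.83 (SE 0.410) and −0.65 (SE 0.417) in the same order of treatments. That of PLA2G3 was −1.27 (SE 0.337), −1.31 (SE 0.319) and −2.16 (SE 0.386). DHA + PCA against DHA gave 0.94 (SE 0.505) for SCN3B and −0.89 (SE 0.434) for PLA2G3, opposite in sign, and these differences were not tested. From the lowest of the 11893 log2 fold changes, SCN3B was at places 4, 1 and 174 and PLA2G3 at places 16, 9 and 1. AGR2 lay at places 61, 49 and 66 and FST at 88, 97 and 33. The share of all genes called in these comparisons was 0.193%, 0.395% and 0.286%.

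The DHA + PRO value of SCN3B moved with the deep library. Without that library the log2 fold change against Ctrl was −2.40 (SE 0.601), and with its reads thinned to the median depth in 1 random draw, which left 1 of 23 reads of SCN3B, it was −2.66 (SE 0.535). Against PRO, DHA + PRO gave −0.98 (SE 0.447) for SCN3B, which became −1.56 without the deep library, −1.82 after thinning and −0.58 without replicate 2 of PRO. Thinning took AGR2 from 375 to 53 reads, PLA2G3 from 70 to 14 and FST from 1965 to 318. As deposited, their DHA + PRO values against PRO were −0.67 (SE 0.162), −0.81 (SE 0.327) and −0.68 (SE 0.213).

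Against Ctrl at 24 h, PRO and PCA without DHA gave smaller falls than the treatments with DHA, apart from SCN3B with PRO. That value was further below 0 than SCN3B with DHA + PCA (−0.65), and the difference was not tested. PRO against Ctrl was −0.29 (SE 0.159) for AGR2, −0.85 (SE 0.411) for SCN3B, −0.50 (SE 0.310) for PLA2G3 and −0.10 (SE 0.212) for FST. PCA against Ctrl was −0.18 (SE 0.159), −0.22 (SE 0.389), −0.05 (SE 0.303) and −0.29 (SE 0.215). All 8 values were below 0. They share the Ctrl libraries that helped to choose the genes, in which each gene had its highest mean. DHA + PCA against PCA leaves Ctrl out but still uses the DHA + PCA libraries that helped to choose the genes. It was −0.73 (SE 0.171) for AGR2, −0.43 (SE 0.428) for SCN3B, −2.12 (SE 0.387) for PLA2G3 and −0.77 (SE 0.226) for FST. Fewer cells with a transcript and less of it per cell cannot be told apart in bulk RNA.

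**Figure D2:**
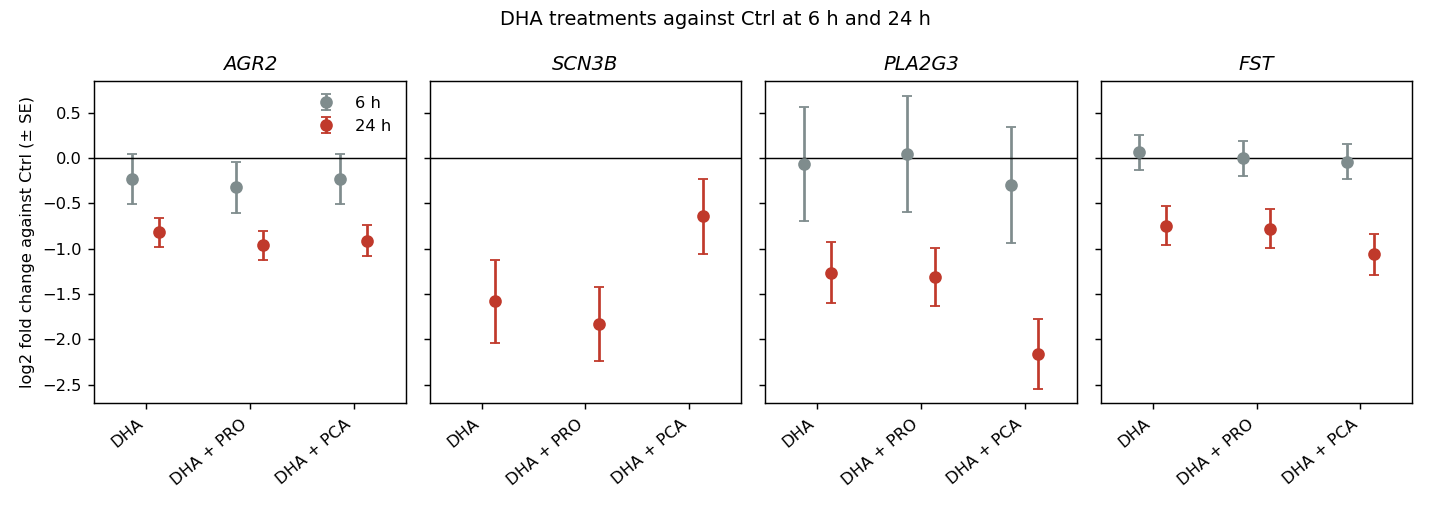
Log2 fold change (± SE) of DHA, DHA + PRO and DHA + PCA against Ctrl for each gene, grey at 6 h and red at 24 h, on a common axis. The 24 h values run from −0.65 to −2.16, and SCN3B has no 6 h values because it did not pass the filter on low counts.

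The nearest genes on the other strand were examined because PLA2G3 and SCN3B had so few reads. INPP5J, beside PLA2G3, had 0.790 to 1.57 CPM with DHA at 24 h (median 1.20 CPM, n = 9) and 1.17 to 3.86 CPM without it (median 1.47 CPM, n = 9). GRAMD1B, beside SCN3B, had a median of 0.653 CPM with DHA, from 0.354 to 1.503 CPM, and of 0.576 CPM without it, from 0.290 to 0.962 CPM. Both neighbours overlapped between the 2 sets of libraries. They were named after their values were seen, and any share of their reads in PLA2G3 or SCN3B was not tested.

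The libraries at 6 h had no part in the choice of the genes and allowed a test. The DHA effect, averaged over DHA against Ctrl, DHA + PRO against PRO and DHA + PCA against PCA, was −0.22 on the log2 scale for AGR2 (SE 0.161, 95% interval −0.55 to 0.12). It was −0.29 for PLA2G3 (SE 0.363, −1.05 to 0.47) and 0.07 for FST (SE 0.112, −0.16 to 0.30). None passed the edgeR test (adjusted p = 0.9995 for each), while 24 of 11872 genes did (0.202%). The same average at 24 h, which shares libraries with the choice and has no test here, was −0.74 for AGR2, −1.40 for PLA2G3 and −0.73 for FST. The difference between the times was not tested. The value for PLA2G3 depended on 2 libraries at 6 h, since it was −0.78 (SE 0.354, adjusted p = 0.995 in edgeR) without replicate 1 of DHA, which had 20 reads, and −0.08 (SE 0.368) without replicate 1 of PCA, which had 21.

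In single libraries at 6 h, AGR2 ranged from 5.42 to 8.92 CPM with DHA (median 6.85, n = 9) and from 5.36 to 10.4 CPM without it (median 9.27, n = 9). FST ranged from 38.9 to 65.1 CPM with DHA and from 35.2 to 56.9 CPM without it. PLA2G3 had 2 to 20 reads with DHA and 5 to 21 without it, so the ranges overlapped for all 3 genes. An exact permutation test of log2 CPM within the 3 pairs of groups (two-sided, smallest possible p = 0.00025) gave p = 0.226 for AGR2, p = 0.297 for PLA2G3 and p = 0.561 for FST.

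SCN3B had 1 to 16 reads at 6 h and did not pass the filter on low counts. DHA held 4, 3 and 1 reads, Ctrl 8, 11 and 3, PRO 16, 9 and 2, and PCA 7, 5 and 9. DHA + PRO held 4, 4 and 5 reads and DHA + PCA 3, 3 and 8. The DHA effect was −0.49 in log2 CPM, which the exact permutation test did not separate from 0 (p = 0.0813, or 0.325 adjusted over the 12 permutation tests run on these genes). Without the filter the edgeR estimate was −0.74 (SE 0.408, adjusted p = 0.9999), and in a joint fit of both times it was −0.76 (SE 0.314, unadjusted p = 0.0207, adjusted p = 0.995).

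No single comparison at 6 h gave a call for AGR2, PLA2G3 or FST. DHA, DHA + PRO and DHA + PCA against Ctrl, in each of which 0.0168% of all genes was called, gave −0.23, −0.33 and −0.23 for AGR2, −0.07, 0.05 and −0.30 for PLA2G3 and 0.06, −0.003 and −0.04 for FST. Their SE was 0.275 to 0.283 for AGR2, 0.630 to 0.642 for PLA2G3 and 0.193 to 0.195 for FST. PRO and PCA against Ctrl gave 0 calls in the edgeR test over all genes, with 196 and 86 genes at an unadjusted p below 0.05. The DHA effect on PRO minus that on Ctrl was 0.06 (SE 0.398) for AGR2, −0.01 (SE 0.891) for PLA2G3 and 0.03 (SE 0.275) for FST. On PCA it was −0.02 (SE 0.389), −0.65 (SE 0.882) and −0.01 (SE 0.273). None of the 3 was called (adjusted p of at least 0.9999 in edgeR), nor was any gene of the table (0.00%, with 217 and 108 genes at an unadjusted p below 0.05). The 95% interval for PLA2G3 was wide, −1.88 to 1.85 on PRO and −2.49 to 1.19 on PCA.

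The libraries fall into 2 series of library numbers in the labels, which mostly separate replicates 1 and 2 from replicate 3 and whose meaning the labels do not give. Within the 11 libraries of the earlier series the 6 h difference in log2 CPM was −0.02 for AGR2, −0.88 for SCN3B, −0.05 for PLA2G3 and 0.21 for FST. Within the 7 of the later series it was −0.43, 0.09, −0.70 and −0.11. SCN3B and FST thus had opposite signs in the 2 series.

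The change from 6 h to 24 h was read next in cells given PRO or PCA alone. Their 24 h libraries are the reference of 2 of the 3 differences in the averaged DHA effect, in which a high level makes a fall larger, so these values too have no test. AGR2 was higher at 24 h by 0.92 on the log2 scale (SE 0.155, 95% interval 0.61 to 1.24), a 1.90-fold higher level. PLA2G3 was higher by 1.78 (SE 0.318, interval 1.14 to 2.43), or 3.45-fold. SCN3B gave 0.36 (SE 0.331, interval −0.32 to 1.03) and FST 0.35 (SE 0.159, interval 0.03 to 0.68). Changes with time were common, since 35.5% of 12046 genes were called in this comparison.

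Single libraries showed the same order. In PRO and PCA, AGR2 went from 6.04 to 10.4 CPM at 6 h to 13.1 to 17.8 CPM at 24 h, and PLA2G3 from 0.816 to 2.39 CPM to 3.05 to 6.32 CPM. By treatment, AGR2 gained 0.96 (SE 0.221) with PRO and 0.89 (SE 0.218) with PCA. PLA2G3 gained 1.71 (SE 0.464) and 1.86 (SE 0.437). SCN3B gave −0.13 (SE 0.469) with PRO and 0.84 (SE 0.463) with PCA. Of all genes, 14.1% were called with PRO and 27.5% with PCA. Within the earlier and the later series the differences in log2 CPM were 0.88 and 1.04 for AGR2 and 1.53 and 1.90 for PLA2G3.

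The same change from 6 h to 24 h was also read in the other groups, again as values with no test. In Ctrl it was 1.09 (SE 0.217) for AGR2, 1.09 (SE 0.449) for SCN3B, 2.33 (SE 0.454) for PLA2G3 and 0.45 (SE 0.224) for FST. In DHA it was 0.49 (SE 0.230), 0.72 (SE 0.650), 1.12 (SE 0.511) and −0.37 (SE 0.228). DHA + PRO gave 0.44, −0.52, 0.99 and −0.35, and DHA + PCA gave 0.40, 0.88, 0.46 and −0.57 in the same order of genes. For AGR2 and PLA2G3 the estimate was thus above 0 in every group, and smaller where DHA was present. For both genes the 95% interval reached below 0 with DHA + PRO and with DHA + PCA. It was widest for PLA2G3 with DHA + PCA (−0.75 to 1.67). For FST the sign was positive in the 3 groups without DHA and negative in the 3 with it.

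**Figure D3:**
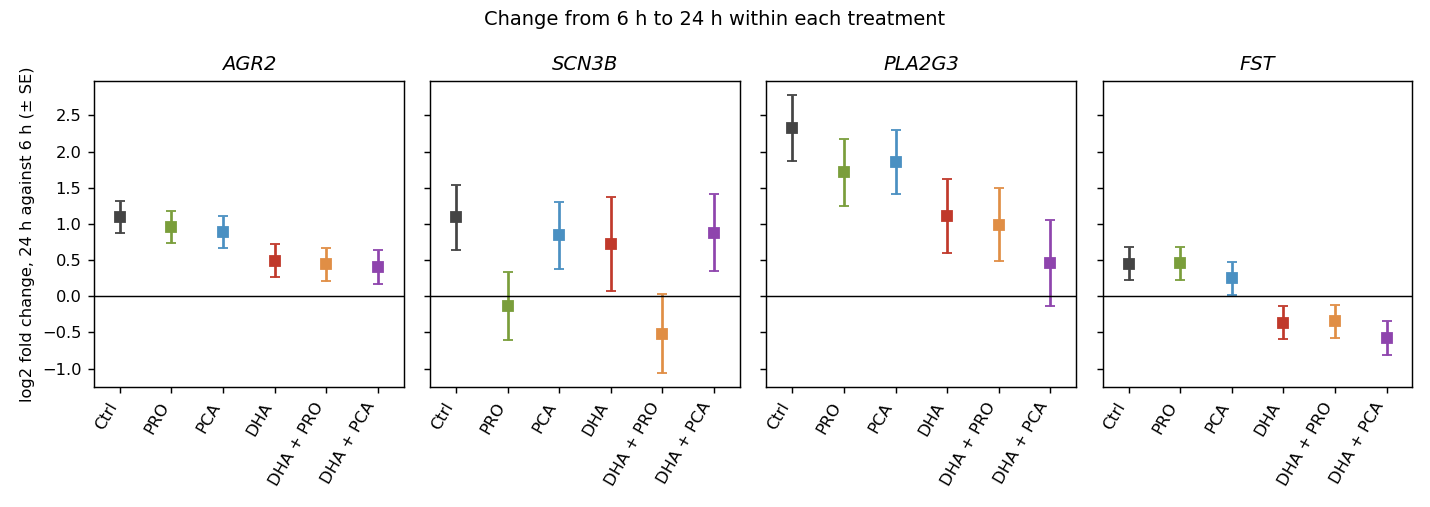
Log2 fold change (± SE) from 6 h to 24 h within each treatment, on a common axis, for the 4 genes. PLA2G3 runs from 2.33 in Ctrl to 0.46 in DHA + PCA, where SCN3B is higher (0.88), and FST has values on both sides of 0, 0.45 in Ctrl and −0.57 in DHA + PCA.

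PRO and PCA were also compared with each other at 24 h. PRO held 114, 101 and 113 reads of AGR2 and PCA 81, 118 and 117, which after scaling gave a log2 difference (PRO minus PCA) of −0.11 (SE 0.161, 95% interval −0.45 to 0.22). SCN3B gave −0.63 (SE 0.423), PLA2G3 −0.45 (SE 0.311, −1.10 to 0.19) and FST 0.19 (SE 0.214, −0.25 to 0.63). None passed the edgeR test (adjusted p from 0.522 to 0.787). No gene of the table did (0.00% of 11893), although 1586 had an unadjusted p below 0.05 and the DESeq2 Wald test called 19. An exact permutation test of 3 against 3 cannot go below 0.1 and gave p of 0.2 to 0.7. The interval for PLA2G3 leaves room for a difference of more than 1 log2 unit, and SCN3B had a still larger SE.

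Genes related to each of the 4 were then read in the averaged DHA effect, without the 4 themselves. The 5 lists held 166 genes, of which 111 were tested at 24 h and 2 were called (1.80%), beside 146 of all 11893 genes (1.23%). At 6 h none of the 110 tested was called. The median over all genes at 24 h was 0.01 on the log2 scale.

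Around AGR2, 23 of 26 other genes of the protein disulfide isomerase family and of oxidative folding in the ER were tested at 24 h, and 0 were called, with a median log2 fold change of −0.06. The lowest was ERO1LB, an oxidase that recharges disulfide isomerases, at −0.20 (SE 0.142), and the highest was TXNDC5, a disulfide isomerase, at 0.15 (SE 0.120). P4HB and PDIA4, disulfide isomerases named after their values were seen, were at −0.13 each. Both were called with replicate number as a block in the fit. AGR2, which was chosen for its fall, was at −0.74.

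SCN3B belongs to both the sodium channel list and the list of p53 target genes. Of 24 other sodium channel genes 11 were tested, with 0 called and a median of 0.04. Their range ran from SCN9A, a pore-forming alpha subunit, at −0.14 (SE 0.078), to ANK2, a membrane-skeleton adaptor, at 0.19 (SE 0.084). All 25 other p53 target genes were tested, with a median of 0.01. One was lower, TP53INP1, a stress-response cofactor of p53, at −0.38 (SE 0.077, adjusted p = 0.00737 in edgeR). FDXR, a mitochondrial ferredoxin reductase, had the highest value, 0.28 (SE 0.077, adjusted p = 0.0718 in edgeR). FDXR was called with the DESeq2 Wald test, without the filter, with library series as a factor and with replicate number as a block. It was also called without replicate 2 of PRO or of DHA + PCA.

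For PLA2G3, 20 of 43 other genes of phospholipases A2 and eicosanoid synthesis were tested and 0 were called, with a median of 0.02. ALOX12, the arachidonate 12-lipoxygenase, was lowest at −0.35 (SE 0.194), and PAFAH1B3, a catalytic subunit of an acetylhydrolase of platelet-activating factor, was highest at 0.21 (SE 0.069). LPCAT3, a lysophospholipid acyltransferase that was named after its values were seen, was at −0.21 (SE 0.053, adjusted p = 0.0546 in edgeR). It was called with the DESeq2 Wald test, with library series as a factor and with replicate number as a block. LPCAT3 was also called without replicate 1 of PRO or replicate 3 of DHA + PCA. PLA2G3 itself was at −1.40.

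For FST, 32 of 48 other genes of activin and bone morphogenetic protein (BMP) signalling were tested, with a median of 0.00 and 1 lower. GDF11, a ligand of this family, was lowest among the genes not called, at −0.38 (SE 0.147). INHBE, which encodes an activin subunit made in liver cells, had the highest value, 0.41 (SE 0.127, adjusted p = 0.142 in edgeR), and was called without the filter or without replicate 2 of DHA. BAMBI (0.32) and TGFBR3 (−0.15), named after their values were seen, were called with replicate number as a block in the fit. BAMBI was also called without replicate 3 of Ctrl.

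**Figure D4:**
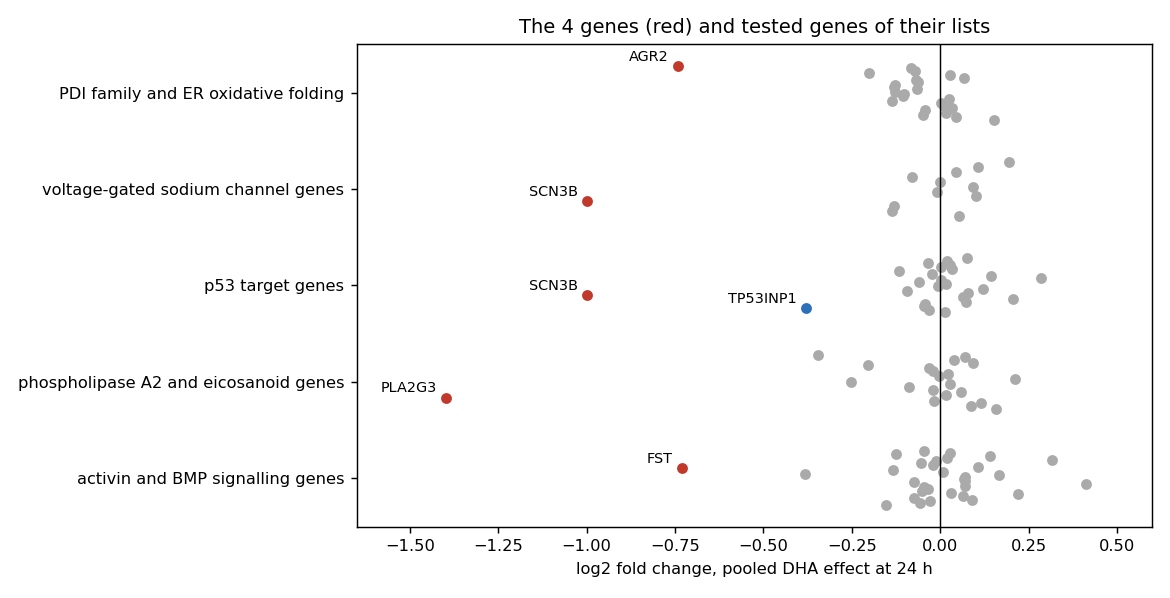
Log2 fold change of the averaged DHA effect at 24 h for tested genes of the 5 lists, 1 row of dots per list. Red dots are the 4 chosen genes, between −0.73 and −1.40, the blue dot is the called gene TP53INP1 (−0.38), and grey dots are genes that were not called, between −0.38 and 0.41.

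The genes with the most similar pattern were found by Pearson correlation of log2 CPM over the 36 libraries, after subtraction of the mean of the 6 libraries with the same time and replicate number, among 11943 genes. The points share the treatment groups, and the libraries at 24 h chose the 4 genes, so the values are a description. AGR2 was closest to CTGF, a matricellular protein (r = 0.84), SCD, the stearoyl-CoA desaturase (r = 0.82), and ACLY, the ATP citrate lyase (r = 0.81). Within the 18 libraries at 6 h the values were 0.65, 0.38 and 0.40. Both SCD and ACLY serve fatty acid synthesis. SCD had a mean of 4160 CPM in Ctrl and 2467 CPM in DHA at 24 h, and ACLY 583 and 422 CPM.

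FST was closest to IGFBP1, a liver-secreted binding protein of insulin-like growth factors (r = 0.89), C10orf10 (r = 0.87) and ERBB3, a receptor tyrosine kinase (r = 0.84). IGFBP1 had 504 CPM in Ctrl and 261 CPM in DHA at 24 h, and C10orf10 68.7 and 26.6 CPM. At 6 h the correlations were 0.45, 0.11 and 0.42, much below those at 24 h of 0.92, 0.91 and 0.89.

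Among the genes closest to PLA2G3 were SAT1, an acetyltransferase of polyamines (r = 0.77), and ACLY (r = 0.72). SCN3B was closest to PROZ, a vitamin K-dependent plasma protein (r = 0.72), NR0B2, a nuclear receptor that represses bile acid synthesis (r = 0.71), and TM7SF2, a sterol reductase (r = 0.69). The values of SCN3B differed little between times, 0.73, 0.80 and 0.74 at 24 h and 0.72, 0.60 and 0.63 at 6 h, but rest on few reads. Among the 4 genes, AGR2 and FST had r = 0.72, PLA2G3 and FST 0.65, AGR2 and PLA2G3 0.62, AGR2 and SCN3B 0.45, SCN3B and PLA2G3 0.35, and SCN3B and FST 0.30. The pair AGR2 and FST still had 34 genes of the table closer to AGR2 than FST was.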

How the data were processed

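RNA of HepG2 cells was sequenced by the authors from TruSeq v2 libraries (HiSeq1500), aligned to hg19/GRCh37 with STAR (version not given in the sources used here) and counted per RefSeq gene with iRNA-seq. The deposited values are raw counts without normalization, and the deposited counted length of each gene (an other unit) was used only for RPKM. Groups and replicate numbers were taken from the labels, and doses from the study's methods. The 3 libraries of a group come from independent experiments. No pair of the 36 within-group pairs was a duplicate (lowest chi-square per degree of freedom 2.21). All genes were fitted in R 4.3.3 with edgeR 4.0.16 (filterByExpr, TMM, quasi-likelihood F test), in 1 fit of 18 libraries per time (11872 genes at 6 h, 11893 at 24 h) and 1 joint fit of 36 (12046 genes) for changes over time. P-values were adjusted by Benjamini-Hochberg. The scripts were tested on simulated counts. SCN3B did not pass the filter at 6 h and passed in the other fits, and the other 3 genes passed in all. The SE is the log2 fold change divided by the square root of F. CPM is on the TMM-scaled sizes of the joint fit, and log2 CPM has a prior count of 2. Permutation tests were exact and two-sided. DESeq2 1.42.0 served as an alternative. A PCR read without molecular identifier is not an independent molecule, so Poisson intervals cover counting error only.

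The 4 genes and the gene lists were chosen with earlier results of these data known. In each list, the genes named are those called in the averaged DHA effect and the tested genes with its largest rise and largest fall. For each of the 4 genes, the 3 genes with the highest correlation are named. The results of 2 genes that these rules would name are not reported here. Plots were made in Python 3.11.15 with matplotlib 3.10.9.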

Additional observations from a re-analysis of the deposited data

How the results depend on the processing

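Over 490 values of the 4 genes under alternative settings, 480 kept their direction and side of the threshold or moved by less than the replicate spread, 8 moved further, 2 passed the threshold and 0 reversed. Many of the 490 are DHA values at 24 h, where the choice of the genes favoured a fall. The counts are therefore a description. SCN3B with DHA against Ctrl at 24 h was −1.29 with a prior count of 2, and −1.45 to −1.80 with single libraries left out. With DHA + PRO it was −1.48 with that prior count, −2.66 with the deep library thinned, and −1.72 to −2.40 with single libraries left out. Against PRO it was −1.82 after thinning, −1.56 without the deep library and −0.58 without replicate 2 of PRO at 24 h, the range with single libraries left out. PLA2G3 with DHA + PCA was −1.98 with the prior count of 2. The change of FST from 6 h to 24 h with PRO or PCA was 0.21 to 0.45 with single libraries left out. Both values past the threshold belong to it, 0.45 without replicate 1 of PRO at 24 h and 0.45 without replicate 1 of PCA at 24 h. Nothing is read from them, since this change is given above with no test. Thinning was 1 random draw, and the cause of these shifts was not tested.

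Listed genes called at 24 h went from 2 to 4 with the DESeq2 Wald test, without the filter or with library series as a factor, and to 1 to 3 with single libraries left out. At 6 h, 1 (LPCAT1, named after its values were seen) was called instead of 0 in the Wald test, with library series as a factor and in the joint fit, which was chosen after seeing the data. The DESeq2 Wald test without the filter, also chosen then, gave −0.74 for SCN3B at 6 h, with an adjusted p of NA. Over all genes, calls at 6 h ran from 10 to 64 (24 as reported, and 10 to 15 when any of 10 single libraries was left out), at 24 h from 113 to 367 (146 as reported, and 223 without replicate 1 of PRO), and for PRO against PCA from 0 to 527, the last without replicate 2 of PRO at 24 h, and 117 without the filter.

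Replicate numbers are shared across groups, and the deposited column labels hold the same run of numbers for a given replicate number in every group. The labels do not say that a number marks the same experiment. Samples with the same number deviated together in 36 of 45 pairs at 6 h and 34 of 45 at 24 h (r above 0.1), and 15 of 18 libraries at each time correlated best with their own number. With the replicate block, 64 genes were called at 6 h, 367 at 24 h and 59 for PRO against PCA, with 8 listed genes at 24 h and 1 at 6 h. The former included the disulfide isomerases P4HB and PDIA4 (−0.13 each without the block), LPCAT3, FDXR, BAMBI and TGFBR3. The block left the calls for AGR2, SCN3B, PLA2G3 and FST as they were. SCN3B and PLA2G3, with as few as 1 and 2 reads in a library, set the limit of depth.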
